A study of Mus musculus with 24 samples.

Results

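The genes described here mark neural progenitors and carry Notch signalling: the radial glia and progenitor genes Nes, Fabp7, Slc1a3, Sox2 and Sox1, the receptor Notch1, the ligands Dll1 and Dll3, and the target repressors Hes1 and Hes5. Members were taken by name from a list of 10 genes, and 9 of the 10 have a gene among the 22380 protein-coding genes of the GENCODE M1 annotation (mm9). Sox1 has none there, so its tags are given separately as a description. The level of a gene is its RPKM, the number of unique tags with their midpoint in its merged exons, scaled to exon length in kilobases and to the unique tags of the library.

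Fetal head (FH) RNA came from wild type FVB/N mice at 14.5 dpc, and the other source was CCE, a feeder-independent embryonic stem cell line of 129/SvEv mice kept for 5 days in 0.266 µM retinoic acid without LIF. Total RNA was depleted of ribosomal RNA with RiboMinus (14 libraries) or Ribo-Zero (1 library per source, from separate RNA), and all 16 libraries are used here. Both Ribo-Zero libraries were hydrolysed and sequenced at Vienna-CeMM. The 14 RiboMinus libraries are 7 cDNA preparations that were each sequenced at Vienna-IMP and at Nijmegen: CCE1 and CCE2, each sheared and hydrolysed, FH1 sheared and hydrolysed, and FH2 hydrolysed after 2 rounds of depletion. The CCE preparations are technical replicates of 1 line and no source used here says that the FH preparations came from separate animals, so p-values measure the spread between preparations. The paper applied shearing and hydrolysis to the same depleted samples, so sheared and hydrolysed preparations of 1 number share RNA. The main fit treats them as independent. The head is a mixture of tissues, and a lower level through fewer cells of a type cannot be told apart from less RNA per cell.

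In the embryonic brain, radial glia line the ventricle, divide there and give rise to neurons and later to glia. They carry the intermediate filament nestin, the fatty acid binding protein encoded by Fabp7 and the glutamate transporter encoded by Slc1a3, and the transcription factors Sox1 and Sox2 mark them as neural progenitors. Their number is held by Notch signalling: a differentiating cell presents a Delta-like ligand, the receptor on its neighbour is cut, and the freed intracellular part joins RBPJ on DNA and switches on Hes genes, whose proteins repress neurogenic factors.

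RBPJ binds sites with the core TGGGAA, most often within GTGGGAA. The 250 bases before the RefSeq start (GRCm38.p6) are shown for Hes5 and Fabp7, the members with 0 exon tags in every CCE RiboMinus library, with capitals on each TGGGAA or its reverse complement. The Hes5 stretch is chr4:154960673-154960922 and the Fabp7 stretch is chr10:57784673-57784922, both on the + strand.
Hes5: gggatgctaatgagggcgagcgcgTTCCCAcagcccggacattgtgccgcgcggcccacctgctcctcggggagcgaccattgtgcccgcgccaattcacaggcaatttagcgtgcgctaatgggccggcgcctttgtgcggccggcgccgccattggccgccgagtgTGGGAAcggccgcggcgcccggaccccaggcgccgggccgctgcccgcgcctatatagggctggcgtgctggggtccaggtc
Fabp7: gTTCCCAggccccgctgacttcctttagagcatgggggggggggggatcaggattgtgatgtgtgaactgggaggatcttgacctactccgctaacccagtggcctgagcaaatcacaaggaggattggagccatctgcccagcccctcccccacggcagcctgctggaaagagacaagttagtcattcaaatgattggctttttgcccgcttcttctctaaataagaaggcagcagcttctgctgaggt
In Hes5 both sites were extended to GTGGGAA, with the first base of the longer site 226 and 83 bases before the start. Fabp7 held TTCCCA 249 bases before the start and no GTGGGAA. A promoter window was matched for all members but Hes1, which was not searched, 10 windows in all, and TGGGAA was in 2 of the 10 and in 21.6% of all 32851 windows of this length on either strand, while GTGGGAA was in 1 of the 10 and in 5.42% of all. Of all windows, 0.161% held 2 or more GTGGGAA. The N box CACNAG, the letters that Hes repressors are known to prefer, was in the windows of Notch1, Fabp7 and Slc1a3, against 36.7% of all windows. These matches are descriptions of letters, not of bound sites.

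Across the RiboMinus preparations, Hes5, Fabp7, Dll1 and Dll3 were close to absent from CCE and present in FH, Notch1, Sox2 and Nes were present in both and higher in FH, and Slc1a3 and Hes1 were present in both without a called difference. The fit was limma on log2(RPKM + 1) over 4 CCE and 3 FH preparations and 10306 protein-coding genes whose mean level exceeded an RPKM of 3 in at least 1 source, with Benjamini-Hochberg adjusted p under 0.05 as the call. Of the 9 members tested, 7 were called higher in FH and 0 lower, where 19.9% of all tested genes were called higher and 34.8% lower. Hes5, Fabp7, Dll1 and Dll3 passed the filter only through FH, where they are high, so their calls are no support for the list. Of the 5 members that passed through both sources, Nes, Sox2 and Notch1 were called. The median log2 difference was 0.59 over these 5 and -0.34 over all genes tested. Over the 9 members it was 1.36, also with Fabp7 and Hes5 at their lower bounds, a value that the filter raises. On the scale of exon tags alone the median over all genes tested was 0.01 and that over the 9 members 1.69, and calls then split into 2840 higher and 2138 lower in place of 2056 and 3582.

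Sequencing at each location was also read alone. In the Vienna-IMP libraries Nes was 0.47 (limma adjusted p = 0.081), Sox2 0.91 and Notch1 1.37, the last 2 still called. In the Nijmegen libraries Nes was 0.62, Sox2 0.99 and Notch1 1.36 with none called, and 4 members in all were called higher there. Between locations, the log2 ratio of preparation 1 to preparation 2 correlated across genes at 0.64 for sheared CCE but at -0.64 for hydrolysed CCE and -0.50 for hydrolysed FH, so the numbers of the hydrolysed libraries may not mark the same cDNA at both locations. If so, each value given for a hydrolysed preparation of CCE or FH, and each fit without it, mixes both cDNAs of that source. With the hydrolysed numbers crossed at Nijmegen, 7 members were called higher.

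**Figure D1:**
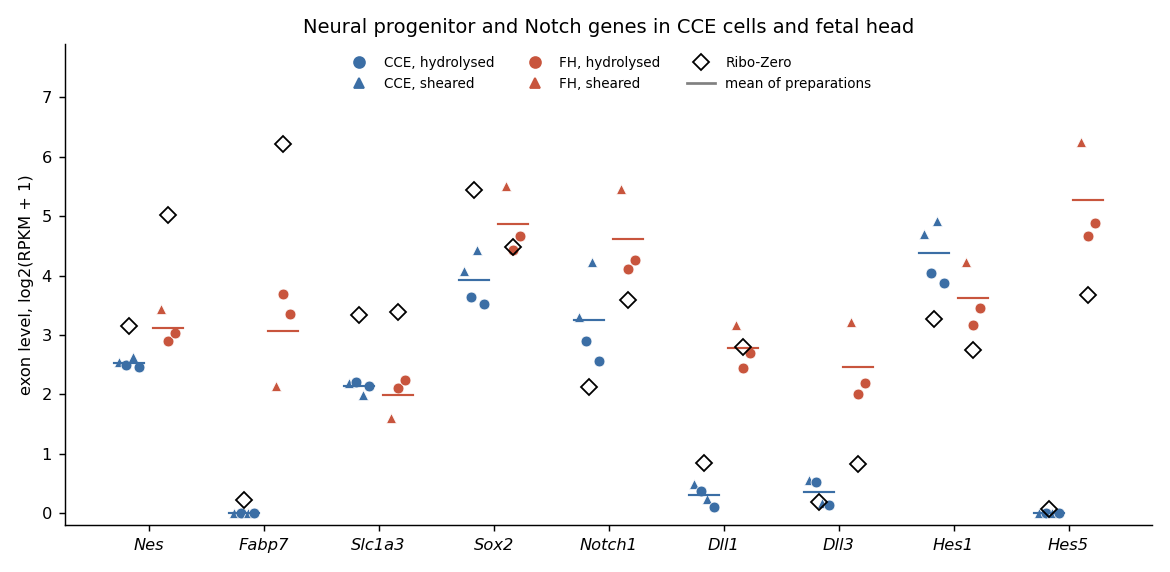
Exon level of each gene, as log2(RPKM + 1), in every RiboMinus preparation of CCE (blue) and FH (red), with sheared preparations as triangles, the mean of the log2 values as a line and the Ribo-Zero libraries as open diamonds. Fabp7 and Hes5 sit at 0 in all 4 CCE preparations, and the sheared FH preparation is the highest FH point for every gene but Fabp7 and Slc1a3, where it is the lowest.

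Hes5 (chr4:154335032-154336480, + strand), a basic helix-loop-helix repressor and Notch target of neural progenitors, had 0 tags in all 4 CCE preparations. Its RPKM was 75.0 in FH1 sheared, 24.3 in FH1 hydrolysed and 28.5 in FH2 hydrolysed. No CCE value came near an FH value, and sheared and hydrolysed FH differed from each other by 2.82 times in pooled RPKM (95% interval 2.34 to 3.40, exact, counting error only). The 484 FH tags put Hes5 at least 212-fold higher in FH, against a floor of 3 tags over the pooled CCE libraries. The fitted log2 difference was 5.26 (SE 0.34, limma adjusted p = 3.83e-06), rank 17 of the 10306 genes. It depends on the pseudocount, being 8.55 with 0.1. Of its 1363 exon bases, 433 are shared with RP24-89N4.5, a transcript on the other strand, and without strand the tags there cannot be told apart. Leaving the shared bases out gave 5.05 (adjusted p = 6.17e-06).

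Hes1 (chr16:30064470-30067882, + strand), the related repressor that is expressed in many tissues and answers to Notch and other signals, was high in both sources. In CCE its RPKM was 25.0 in CCE1 sheared, 15.5 in CCE1 hydrolysed, 29.2 in CCE2 sheared and 13.7 in CCE2 hydrolysed. In FH it was 17.7 in FH1 sheared, 7.93 in FH1 hydrolysed and 9.99 in FH2 hydrolysed. The sources overlap through the sheared FH preparation, while within each fragmentation method every FH value lies below every CCE value. The log2 difference was -0.77 (SE 0.33, limma adjusted p = 0.078) and -0.43 relative to the median of all genes. With fragmentation as a covariate it was -0.63 and passed the test (limma adjusted p = 0.0015), and on the scale of exon tags it was -0.44 (adjusted p = 0.28). It was also called without CCE2 hydrolysed (-0.94) or without FH1 sheared (-1.08), in the Vienna-IMP libraries alone (-0.82, limma adjusted p = 0.045) and in the hydrolysed preparations alone (-0.65, limma adjusted p = 0.0032). The Notch targets Hes1 and Hes5 therefore had log2 differences of opposite sign in these libraries.

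Notch1 (chr2:26313423-26372183, - strand), the receptor, had an RPKM of 8.89 in CCE1 sheared, 6.49 in CCE1 hydrolysed, 17.7 in CCE2 sheared and 4.93 in CCE2 hydrolysed. In FH it was 42.9 in FH1 sheared, 16.2 in FH1 hydrolysed and 18.2 in FH2 hydrolysed. Sheared CCE2 reaches into the range of hydrolysed FH, and like was above like within each method. The log2 difference was 1.36 (SE 0.44, limma adjusted p = 0.028). It lost the call without CCE1 hydrolysed, CCE1 sheared, CCE2 hydrolysed or FH1 sheared, with adjusted p from 0.063 to 0.093, and was 1.55 (limma adjusted p = 1.1e-04) with fragmentation as a covariate. The lincRNAs 0610009E02Rik and Gm13568 on the other strand share 1482 of its 14232 exon bases, and leaving these out gave 1.37 (adjusted p = 0.032).

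Dll1 (chr17:15504318-15513836, - strand), the Delta-like ligand of neurogenic cells, had between 1 and 5 exon tags in each CCE preparation, an RPKM of 0.397 in CCE1 sheared, 0.297 in CCE1 hydrolysed, 0.175 in CCE2 sheared and 0.070 in CCE2 hydrolysed. Its RPKM in FH was 8.03 in FH1 sheared, 4.47 in FH1 hydrolysed and 5.48 in FH2 hydrolysed. Every FH preparation was thus above every CCE preparation, as for Nes, Fabp7, Dll3 and Hes5, 5 members in all, where 20.3% of all tested genes had this order. For the 4 of them other than Nes the filter favours it, so nothing is read from this count. Pooled, Dll1 was 23.7 times higher in FH (95% interval 13.6 to 45.1, exact, from 234 and 13 tags). The ratio was 25.9 in hydrolysed and 27.6 in sheared libraries. Sheared libraries were 4 of the 8 pooled for CCE and 2 of the 6 pooled for FH, so pooled FH to CCE ratios also carry this unequal mix. The fitted log2 difference was 2.48 (SE 0.20, limma adjusted p = 1.26e-05). The lincRNA A930024N18Rik on the other strand shares 867 of its 4219 exon bases, and leaving these out gave 2.40. With a pseudocount of 0.1 in place of 1 the difference was 4.25.

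Dll3 (chr7:29076673-29087257, - strand), a divergent Delta-like protein that acts within the cell that makes it, had an RPKM of 0.466 in CCE1 sheared, 0.435 in CCE1 hydrolysed, 0.128 in CCE2 sheared and 0.103 in CCE2 hydrolysed. FH1 sheared held 8.28, FH1 hydrolysed 3.00 and FH2 hydrolysed 3.54. The groups do not overlap, and the pooled ratio was 14.5 (95% interval 7.80 to 29.7, exact, from 121 and 11 tags). The log2 difference was 2.12 (SE 0.29, limma adjusted p = 3.01e-04), and 3.72 with a pseudocount of 0.1. Dll1 and Dll3 were thus both called, and their CCE levels overlapped with each other, as did their FH levels.

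Fabp7 (chr10:57504687-57508256, + strand), whose protein carries fatty acids in radial glia, had 0 tags in all 4 CCE preparations. Its RPKM was 3.39 in FH1 sheared, 11.8 in FH1 hydrolysed and 9.25 in FH2 hydrolysed. Here the sheared preparation was the lowest of the 3, the reverse of Hes5. Its 113 FH tags put it at least 49.5-fold higher in FH against 3 tags over the pooled CCE libraries. The fitted log2 difference was 3.06 (SE 0.32, limma adjusted p = 6.55e-05), and it too depends on the pseudocount, being 6.19 with 0.1.

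Nes (chr3:87775000-87784373, + strand), the nestin gene, had an RPKM of 4.80 in CCE1 sheared, 4.61 in CCE1 hydrolysed, 5.19 in CCE2 sheared and 4.49 in CCE2 hydrolysed. FH1 sheared held 9.82, FH1 hydrolysed 6.42 and FH2 hydrolysed 7.18. The CCE values lie close together and all 3 FH values lie above them, by less than those of Dll1 or Dll3. The log2 difference was 0.59 (SE 0.18, limma adjusted p = 0.023). Without CCE1 hydrolysed, CCE2 hydrolysed, FH1 sheared or FH2 hydrolysed the adjusted p was 0.054 to 0.075.

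Sox2 (chr3:34548927-34551383, + strand), a transcription factor of both pluripotent cells and neural progenitors, had an RPKM of 15.9 in CCE1 sheared, 11.4 in CCE1 hydrolysed, 20.6 in CCE2 sheared and 10.5 in CCE2 hydrolysed. FH1 sheared held 44.4, FH1 hydrolysed 20.5 and FH2 hydrolysed 24.3. The highest CCE value and the lowest FH value were nearly equal, and within each method the sources separated. The log2 difference was 0.94 (SE 0.31, limma adjusted p = 0.031), and it was 1.08 (adjusted p = 6.9e-05) with fragmentation as a covariate. The call was lost without any 1 of CCE1 sheared, CCE1 hydrolysed, CCE2 hydrolysed, FH1 sheared or FH2 hydrolysed, with adjusted p from 0.053 to 0.094. With the preparation number as a replicate block it was 0.054. Sox2 is a single exon within the span of the lincRNA Sox2ot and shares no exon base with it.

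Slc1a3 (chr15:8584124-8660764, - strand), the glutamate transporter GLAST, had an RPKM of 3.57 in CCE1 sheared, 3.64 in CCE1 hydrolysed, 2.94 in CCE2 sheared and 3.41 in CCE2 hydrolysed. FH1 sheared held 2.05, FH1 hydrolysed 3.28 and FH2 hydrolysed 3.71. The groups overlap, and the log2 difference was -0.15 (95% interval -0.59 to 0.28, limma adjusted p = 0.53). Its sign turned with the scale, being 0.12 on exon tags and 0.04 with median of ratios factors.

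Sox1, a transcription factor of early neural progenitors, was read in a window of mm9 (chr8:12395519-12399555, + strand, 4037 bases) placed by the 1 match of its RefSeq promoter. How far this window covers the Sox1 transcript was not checked against an annotation of this build, so its values are those of the window. The window RPKM was 0.912 in CCE1 sheared, 0.620 in CCE1 hydrolysed, 0.824 in CCE2 sheared and 0.442 in CCE2 hydrolysed. It was 11.7 in FH1 sheared, 4.87 in FH1 hydrolysed and 4.13 in FH2 hydrolysed, so the groups did not overlap. No test was run on it, since it is not in the annotation that was fitted.

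**Figure D2:**
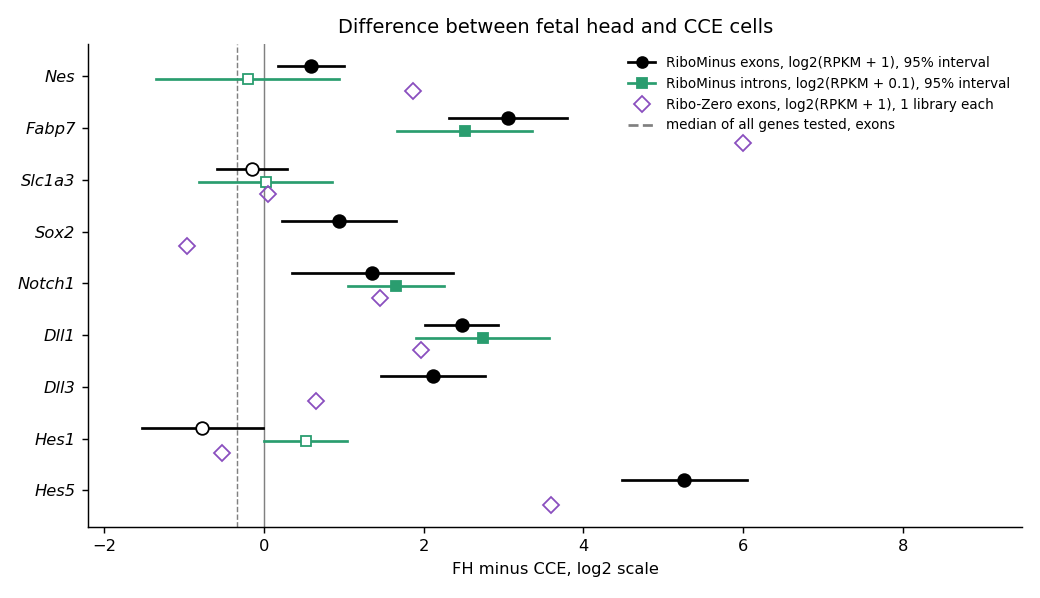
Difference FH minus CCE on a log2 scale for RiboMinus exons (black, 95% interval), RiboMinus introns (green, 95% interval) and Ribo-Zero exons (open diamonds, 1 library each), filled where the limma adjusted p was under 0.05, with the median of all tested exons dashed at -0.34. Sox2 lies on opposite sides of 0 in RiboMinus (0.94) and Ribo-Zero (-0.96).

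In the order of FH levels Hes5 led with a mean RPKM of 42.6 ± 28.1 (SD, n = 3 preparations), followed by Sox2 at 29.7 ± 12.8, Notch1 at 25.8 ± 14.9, Hes1 at 11.9 ± 5.13, Fabp7 at 8.16 ± 4.33, Nes at 7.81 ± 1.78, Dll1 at 5.99 ± 1.84, Dll3 at 4.94 ± 2.91 and Slc1a3 at 3.01 ± 0.865. Each gene overlapped with the next one down. In CCE the order was led by Hes1 at 20.9 ± 7.46 (SD, n = 4), Sox2 at 14.6 ± 4.65 and Notch1 at 9.51 ± 5.71, which overlapped in sequence, and Nes at 4.77 ± 0.304 stood apart from Slc1a3 at 3.39 ± 0.312. Slc1a3 stood apart from Dll3 at 0.283 ± 0.194, which overlapped with Dll1 at 0.235 ± 0.142.

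Unspliced RNA was read from introns, as tags in intron bases outside every exon, with log2(RPKM + 0.1) and 8575 genes of a mean intron RPKM over 0.3. Notch1 intron RPKM was 0.419 ± 0.116 (SD, n = 4) in CCE and 1.51 ± 0.084 (SD, n = 3) in FH, a log2 difference of 1.66 (limma adjusted p = 0.0013). For Dll1 it was 0.104 ± 0.070 in CCE and 1.21 ± 0.338 in FH, a difference of 2.74 (limma adjusted p = 4.6e-04). Both genes overlap lincRNAs on the other strand, 0610009E02Rik and Gm13568 for Notch1 and A930024N18Rik for Dll1. Without strand, unspliced RNA of these lincRNAs cannot be told apart from that of the members. Fabp7 introns had 0 tags in CCE and 14 in FH, at least 6.14-fold higher in FH, and passed the test (limma adjusted p = 8.6e-04). Fabp7 and Dll1 passed the intron filter only through FH, so their calls are no support for the list, and Notch1 was the 1 called of the 4 that passed through both sources. In all 3 of 6 members tested were called higher, where 25.0% of all tested genes were called higher and 5.07% lower and the median log2 difference was 0.46. The differences were -0.20 for Nes (adjusted p = 0.79), 0.02 for Slc1a3 (adjusted p = 0.97) and 0.52 for Hes1 (adjusted p = 0.11), none called. With fragmentation as a covariate the Hes1 introns were called higher (0.55, limma adjusted p = 0.035). Relative to the median of all genes the Hes1 intron difference was 0.06. In Ribo-Zero the intron ratio of FH to CCE was 2.75 for Nes (95% exact interval 2.09 to 3.66, from 297 and 64 tags), above 1 where the RiboMinus pool gave 0.877 (interval 0.566 to 1.34). It was 5.40 for Notch1 (interval 4.89 to 5.98), 6.39 for Dll1 (interval 4.34 to 9.79), 1.07 for Slc1a3 (interval 0.9999 to 1.13) and 1.11 for Hes1 (interval 0.805 to 1.54). Dll3 introns were under the filter, with 0 tags in CCE and 12 in FH, and Sox2 and Hes5 have no intron outside exons.

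In Ribo-Zero, Nes, Fabp7, Notch1, Dll1, Dll3 and Hes5 were higher in FH as in the RiboMinus fit, and Sox2 was lower. There is 1 library per source, so the ratios below have no replicate check. Their exact intervals cover counting error only and take every tag as an independent count. Many tags share a position, as with Nes in FH, where 9723 tags lay on 4204 distinct positions, so these intervals are too narrow where tags repeat. Fabp7 RPKM was 0.167 in CCE and 73.7 in FH, 441 times higher in FH (interval 202 to 1201, from 6 and 4459 tags). Hes5 RPKM was 0.051 in CCE and 11.7 in FH, a ratio of 229 (interval 63.1 to 1890, from 2 and 771 tags). The members with 0 tags in CCE by RiboMinus thus had a handful of tags in the deeper CCE library. Dll1 went from 0.784 to 5.98, a ratio of 7.62 (interval 6.18 to 9.49), and Dll3 from 0.133 to 0.782, a ratio of 5.87 (interval 3.16 to 12.1, from 11 and 109 tags). Notch1 went from 3.36 to 11.0, a ratio of 3.27 (interval 3.08 to 3.46), against 2.47 (interval 2.33 to 2.63) in pooled RiboMinus. Its RiboMinus ratio was 2.99 (interval 2.73 to 3.28) in hydrolysed and 3.28 (interval 3.02 to 3.57) in sheared libraries, both above the pooled value. Nes had 7.87 in CCE and 31.3 in FH, a ratio of 3.98 (interval 3.76 to 4.21), against 1.56 (interval 1.36 to 1.79) in pooled RiboMinus. Hes1 was at 8.65 in CCE and 5.74 in FH, a ratio of 0.663 (interval 0.587 to 0.749), and Slc1a3 at 9.06 and 9.40, a ratio of 1.04 (interval 0.984 to 1.09). On log2(RPKM + 1) the median Ribo-Zero difference over all genes tested was -0.48. On that scale Hes1 was at -0.52, close to this median, Slc1a3 at 0.05 and Sox2 at -0.96. With each position counted once, the ratio fell to 1.84 for Nes, 59.6 for Fabp7, 114 for Hes5, 1.87 for Notch1 and 4.78 for Dll1. It fell to 4.42 for Dll3, 0.716 for Slc1a3, 0.518 for Hes1 and 0.427 for Sox2. These ratios are scaled to the distinct positions of each library. Those were 51.4% of tags in CCE and 62.6% in FH, which lowers every such ratio. A position is a start and a strand. The 4459 FH tags of Fabp7 lay on 735 distinct positions, within 1250 exon bases that can each be hit on either strand.

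Sox2 was the called member whose sign differed between kits, and the sign of Slc1a3, near 0 in both, differed too. The Sox2 Ribo-Zero RPKM was 42.7 in CCE and 21.4 in FH, a ratio of 0.502 (interval 0.476 to 0.530), where pooled RiboMinus gave 1.89 (interval 1.67 to 2.14). Hydrolysed RiboMinus alone gave 2.05 (interval 1.73 to 2.43) and sheared RiboMinus alone 2.44 (interval 2.02 to 2.95). The pooled RiboMinus to Ribo-Zero ratio was 1.25 (interval 1.14 to 1.36) in FH and 0.331 (interval 0.299 to 0.366) in CCE, so the kits lay farther apart in CCE. The Ribo-Zero libraries were hydrolysed only. Hydrolysed RiboMinus alone gave a ratio of 1.05 (interval 0.948 to 1.16) in FH, and in CCE its RPKM was 11.0 against 42.7 by Ribo-Zero. The Ribo-Zero RNA was a separate sample, sequenced at another site on another sequencer model with longer reads. Kit, sample, site and read length therefore cannot be told apart. Of the 2056 genes called higher by RiboMinus, 8.07% had the opposite sign in Ribo-Zero, on log2(RPKM + 1), and 7 genes were opposite by 2-fold or more. The summed RPKM of the 7 pluripotency markers was 116 in the Ribo-Zero CCE library and 46.9 to 56.5 in the RiboMinus CCE preparations, and that of the 8 extraembryonic endoderm markers was 339 and 128 to 213. The endoderm markers did not move together. In CCE, Col4a1 was at 187 by Ribo-Zero against a RiboMinus mean of 38.5, and Lama1 at 64.6 against 14.3. Gata4, Dab2 and Afp were also higher by Ribo-Zero, at 17.9, 20.9 and 1.67 against 13.1, 15.9 and 1.11. Gata6 was lower, at 29.7 against 37.8, as were Sox17 at 7.37 against 20.9 and Foxa2 at 10.2 against 17.1. The part of both marker groups in the Sox2 value was not tested.

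The kits also ranked the FH levels differently. Fabp7 (73.7) and Nes (31.3) led the Ribo-Zero order and had ranks 5 and 6 by RiboMinus. Hes5 led by RiboMinus and had rank 4 by Ribo-Zero. These levels count every tag, and in FH Ribo-Zero 16.5% of Fabp7 tags and 43.2% of Nes tags were distinct positions. The other members ran from 48.7% for Sox2 to 91.7% for Dll3, and the whole library was at 62.6%. In pooled FH RiboMinus the shares were 92.0% for Fabp7 and 93.8% for Nes. For Fabp7 the pooled RiboMinus to Ribo-Zero ratio in FH was 0.124 (interval 0.102 to 0.149), for Nes 0.236 (interval 0.215 to 0.259) and for Slc1a3 0.344 (interval 0.303 to 0.389). For Dll3 it was 5.42 (interval 4.15 to 7.08), for Hes5 3.06 (interval 2.73 to 3.44), for Notch1 2.02 (interval 1.94 to 2.11) and for Hes1 1.86 (interval 1.58 to 2.18). Dll1 was at 0.935 (interval 0.810 to 1.08). These pools include sheared libraries, while the Ribo-Zero libraries were hydrolysed only. With hydrolysed RiboMinus alone the FH ratio was 4.20 for Dll3, 2.27 for Hes5, 1.58 for Notch1 and 1.58 for Hes1. It was 0.839 (interval 0.710 to 0.986) for Dll1, 0.374 for Slc1a3, 0.218 for Nes and 0.142 for Fabp7.

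Over all genes the pooled ratios moved with base composition. Exon GC was 40.4% for Fabp7, 44.3% for Slc1a3, 60.1% for Dll3 and 63.1% for Hes5, against a median of 49.1% over all protein-coding genes. Over 10074 genes with an RPKM over 3 in FH by either kit, the median log2 ratio of pooled RiboMinus to Ribo-Zero, on RPKM + 1, was -0.22 in the lowest quintile of exon GC and 1.23 in the highest. Nes stood off this run with a log2 ratio of -1.94 at 55.3% GC, lower than all but 1.36% of those genes, and Fabp7 with -2.88, lower than all but 0.218%. Slc1a3 at -1.30 and Dll1 at -0.08 were also below the lower quartiles of their GC quintiles, -0.82 and 0.28. Sox2, Notch1, Dll3, Hes1 and Hes5 lay within the quartiles of theirs. Whether base composition or repeated positions account for the kit ratios was not tested.

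**Figure D3:**
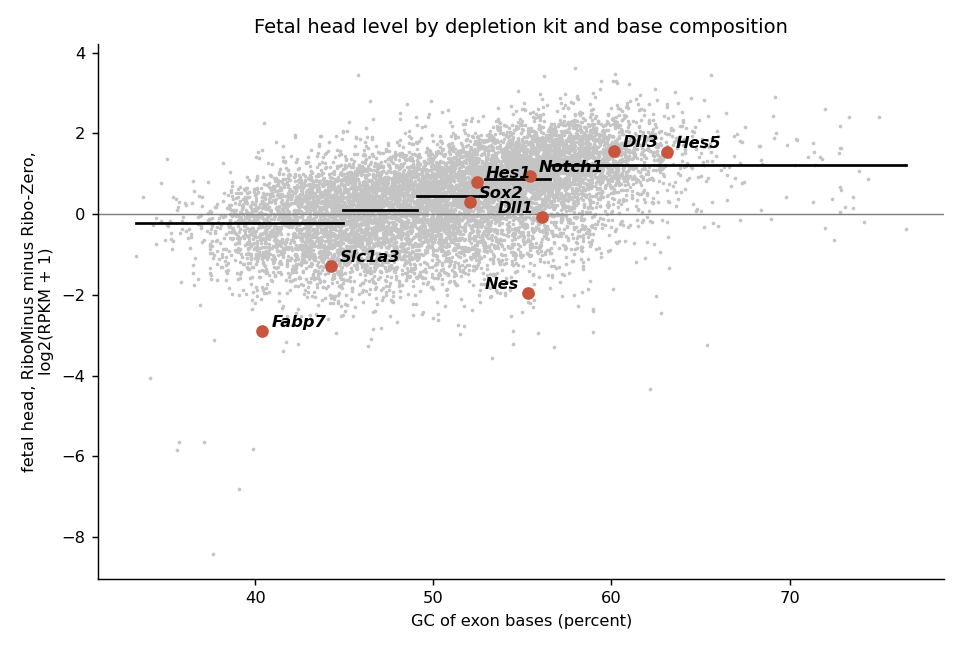
Pooled RiboMinus (sheared and hydrolysed) minus Ribo-Zero (hydrolysed only) level of FH on log2(RPKM + 1) against the GC of exon bases, for 10074 genes (grey), with medians of GC quintiles as black bars and the 9 genes in red. Fabp7, Slc1a3 and Nes lie below 0, Dll1 is close to 0, and Dll3 and Hes5 lie near 1.5.

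The FH sheared to hydrolysed ratios of the members fell in an order similar to that of their FH kit ratios. In FH the sheared to hydrolysed RPKM ratio was 2.82 for Hes5, 2.52 for Dll3, 2.48 for Notch1, 1.97 for Sox2, 1.95 for Hes1, 1.60 for Dll1 and 1.44 for Nes, all with intervals above 1. It was 0.583 for Slc1a3 (interval 0.392 to 0.841) and 0.324 for Fabp7 (interval 0.136 to 0.663). In CCE it was 2.27 for Notch1, 1.84 for Hes1 and 1.65 for Sox2, and the interval held 1 for Nes (0.893 to 1.34) and Slc1a3 (0.751 to 1.14). The CCE kit ratio of Sox2 was 0.331, below 0.377 for Slc1a3 and 0.603 for Nes, so the orders differed in CCE. Sheared FH is 1 preparation. The share of all genes that were higher in sheared cDNA was not computed, so nothing is read from the direction of these ratios.

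The tags also fell unevenly within the genes. In Sox2 the coding bases are 66.1% GC and the 3′ UTR 36.3%, and the FH tag density of the 3′ UTR was 0.028 of the coding density in sheared RiboMinus, 0.301 in hydrolysed RiboMinus and 0.557 in Ribo-Zero. Notch1 had 0.073, 0.272 and 0.437 in the same order, with 58.8% GC in coding bases and 45.6% in the 3′ UTR. Hes5, whose 3′ UTR has 57.5% GC, had 0.406, 0.644 and 0.826. Other genes had another order: Nes had 0, 1.45 and 0.652, Slc1a3 0.362, 0.221 and 0.717, and Fabp7, with 31.8% GC in its 3′ UTR, 1.31, 0.677 and 0.658, the first from 3 sheared tags. Of the 206 sheared FH tags of Sox2, 187 lay in coding bases and 6 in the 3′ UTR. The coding bases of Sox2 alone had an RPKM of 103 in sheared, 35.6 in hydrolysed and 25.9 in Ribo-Zero FH libraries.

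**Figure D4:**
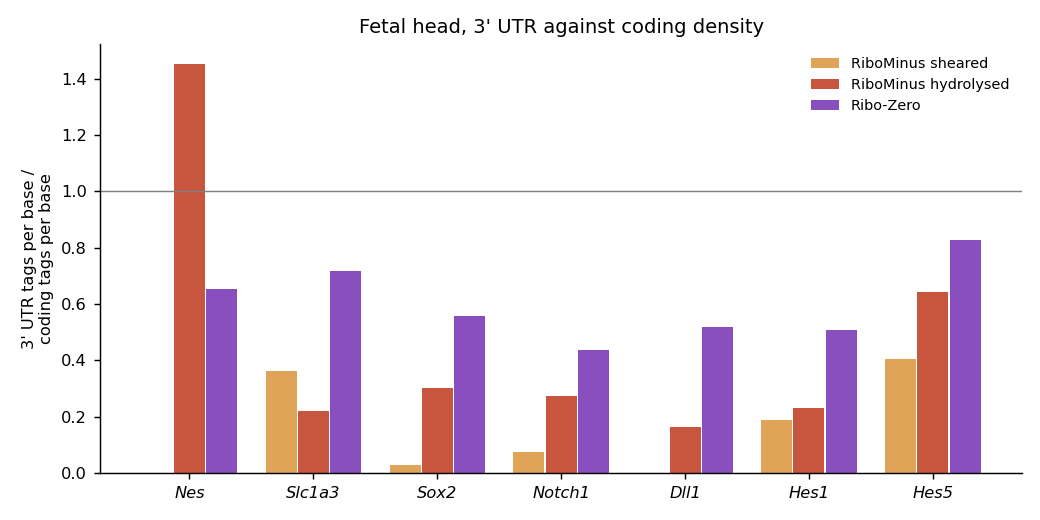
Tags per base in the 3′ UTR divided by tags per base in coding exons, in pooled FH libraries by fragmentation and kit, for 7 genes (Fabp7 and Dll3 are not drawn). Ribo-Zero bars are the tallest for Slc1a3, Sox2, Notch1, Dll1, Hes1 and Hes5, and the sheared bars of Nes and Dll1 are absent because no sheared tag fell in their 3′ UTR.

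The other genes of the 2 groups were read from lists. Of 21 further neural progenitor genes, 19 were tested, and 13 were called higher in FH, 4 lower and 2 not called, with a median log2 difference of 1.81, where 19.9% of all tested genes were called higher and 34.8% lower. Of the 13 called higher, 8 passed the filter only through FH, Nr2e1, Ptprz1 and Pou3f2 among them, and of the 10 genes that passed through both sources 5 were called higher and 4 lower, with a median of 0.18. Large increases were in Pou3f2, a neural POU factor, at 0.362 ± 0.379 (SD, n = 4) in CCE and 25.02 ± 18.8 (SD, n = 3) in FH (log2 difference 4.07), Lhx2, a cortical and eye regulator (3.70), and Ptprz1, a receptor phosphatase of radial glia (3.52). Nr2e1, a neural stem cell receptor, had 0 tags in CCE and was at least 124-fold higher in FH. The 4 lower were Vim, the vimentin gene, at -1.38, Tnc, an extracellular matrix gene, at -1.09, Gli3, a Hedgehog factor, at -0.61 and Cdh2, the N-cadherin gene, at -0.47. On the scale of exon tags Vim and Tnc alone of these 4 kept the call, with 14 higher and 2 lower on the list. With median of ratios factors Tnc was the 1 that kept it, and Vim was at -1.13 (limma adjusted p = 0.052). With fragmentation as a covariate 13 of the list were called higher and 5 lower. Among the genes called on this list, Cdh2 and Msi1 had the opposite sign in Ribo-Zero, with an RPKM of 11.6 in CCE and 14.6 in FH for Cdh2 and of 8.38 and 7.29 for Msi1, an RNA-binding protein of neural stem cells. Vim had a Ribo-Zero RPKM of 198 in both sources. Pax6 was under the filter, at a mean RPKM of 0.423 in CCE and 1.19 in FH, and so was Gfap, a later astrocyte gene, at 0.127 and 0.115.

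Of 34 further Notch pathway genes, 26 were tested, 11 called higher, 5 lower and 10 not called, with a median log2 difference of 0.41, beside the same 19.9% and 34.8% over all tested genes. Of the 11 called higher, 7 passed the filter only through FH, and of the 16 genes that passed through both sources 4 were called higher and 5 lower, with a median of -0.12. All 3 ligands on the list were called higher: Jag1 from 2.46 ± 0.239 to 8.16 ± 0.690, Jag2 from 9.35 ± 3.89 to 32.2 ± 20.9, and Dll4, an endothelial ligand, from 0.106 ± 0.078 to 5.86 ± 1.19 (log2 difference 2.62). Of the other 3 receptors Notch4, an endothelial receptor, was called higher at 1.61, and Notch2 at -0.08 and Notch3 at -1.002 were not called. With fragmentation as a covariate Notch3 was called lower (-0.84, limma adjusted p = 0.0097). Of 4 genes of receptor modification, 3 were called higher, the Fringe genes Lfng, Rfng and Mfng, and Mfng had a log2 difference of 4.00 and an RPKM of 0.284 ± 0.287 in CCE and 19.3 ± 1.91 in FH. Dtx1, a Notch ubiquitin ligase of the group of inhibitors and ligand endocytosis, was at 3.73.

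Among the targets and related repressors 4 of 7 were tested, and Nrarp, a feedback inhibitor, at 1.88, Heyl and Hes6 were called higher, while Hey2, at 0.47 (limma adjusted p = 0.089), was not. Hey2 was called on the scale of exon tags (0.75), with median of ratios factors (0.67) and with fragmentation as a covariate (0.52). Of the genes for receptor cleavage and for the nuclear complex, none was called higher in this fit, and Maml3, a coactivator at 0.57, was called on the scale of exon tags (0.83, limma adjusted p = 0.043) and with fragmentation as a covariate (0.67, limma adjusted p = 0.020). Of 4 cleavage genes tested, 3 were called lower, among them the gamma-secretase gene Ncstn at -1.03. The fourth, Adam10, was called lower with fragmentation as a covariate (-0.36, limma adjusted p = 0.026). Maml1, a coactivator, at -0.90, was the 1 of 3 nuclear genes called lower, and Rbpj itself was under the filter at 1.48 in both sources. Numb, an inhibitor of the receptor, was lower at -0.60. Relative to the median of -0.34 over all genes these falls are smaller, and on the scale of exon tags Ncstn was the 1 gene of the list called lower and 14 were called higher. With fragmentation as a covariate 14 were called higher and 7 lower, and with median of ratios factors 13 higher and 2 lower.

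**Figure D5:**
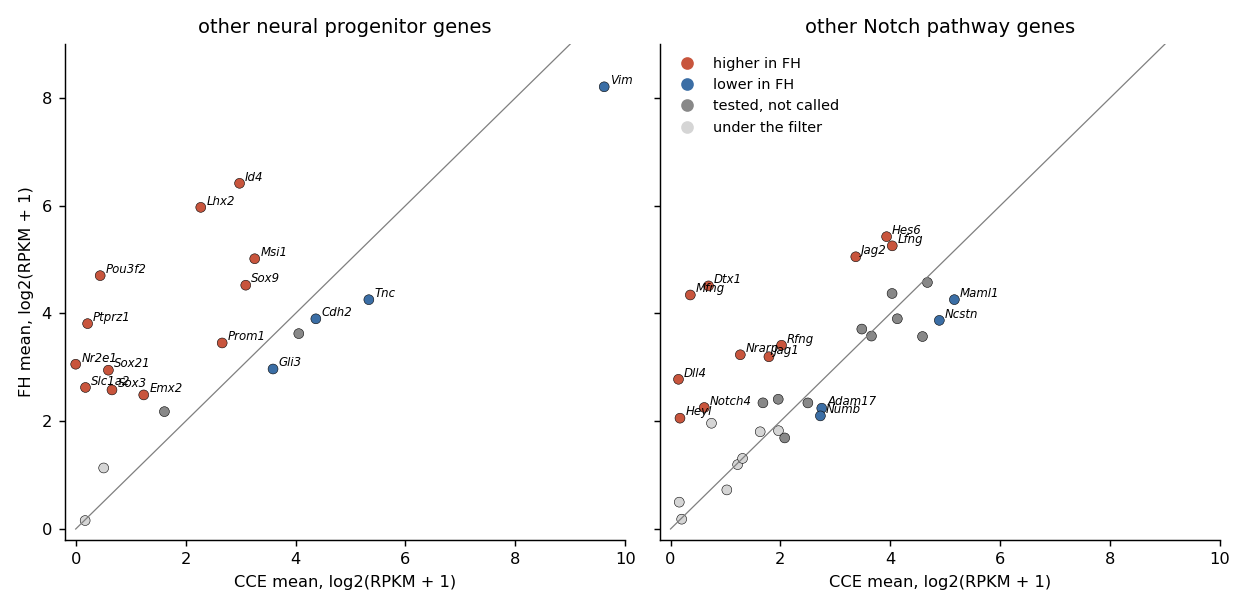
Mean RiboMinus level in CCE (x) and FH (y), both log2(RPKM + 1), for further neural progenitor genes and further Notch pathway genes (1 of each list is not drawn), coloured by the limma call. Pou3f2, Ptprz1, Mfng and Dtx1 lie far above the diagonal near the left edge, and the genes called lower lie below it.

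The head also holds other cells that use these pathways. All 10 neuron markers tested were called higher in FH, among them the proneural gene Neurog2 (log2 difference 5.72), and the summed RPKM of the 11 listed was 31.8 to 37.4 in CCE and 428 to 667 in FH. All 6 endothelial markers were higher, with sums of 6.25 to 6.85 and 63.5 to 85.3, and so were all 6 tested of 7 muscle markers, all 7 of skull mesenchyme and cartilage, all 5 tested of 6 of Schwann cells and 3 of 4 lens markers, with Cryab lower. The sums went from 23.2 to 33.2 in CCE to 151 to 228 in FH for muscle, from 10.7 to 24.02 to 272 to 336 for skull mesenchyme, from 3.92 to 5.75 to 26.03 to 34.4 for Schwann cells and from 30.5 to 59.2 to 194 to 239 for lens. Myod1, Myog, Myh3, Crybb1 and Foxe3 were at 0 in CCE by RiboMinus, and in the Ribo-Zero CCE library none of these exceeded an RPKM of 0.165. The share of all tested genes called higher was 19.9%, and nothing is read from the marker counts against it, since 8 of the 10 neuron markers, all 6 of endothelium, all 5 of Schwann cells, 5 of 6 of muscle, 6 of 7 of skull mesenchyme and 3 of 4 of lens passed the filter only through FH. No marker of the presomitic mesoderm, where Dll1, Dll3 and Notch also work, passed the filter, with sums of 1.19 to 2.15 in CCE and 1.09 to 2.61 in FH. The part of these cells in the levels of Notch1, Dll1, Hes1 and Slc1a3 was not tested.

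The label of the CCE cells was checked too. All 7 tested of 8 extraembryonic endoderm markers were lower in FH, with sums of 128 to 213 in CCE and 32.4 to 39.5 in FH, and 5 of 6 tested pluripotency markers were lower, with Klf4 higher and Pou5f1, Zfp42, Dppa5a and the endoderm factor Gata4 at 0 in FH by RiboMinus. In the Ribo-Zero FH library Zfp42 had an RPKM of 0.0115 and Gata4 of 0.0106. Of these, 4 of the 7 endoderm markers and the 5 lower pluripotency markers passed the filter only through CCE, and 34.8% of all tested genes were called lower, so the levels and not the counts bear on the label. CCE carried endoderm markers and pluripotency markers together, and Hes1, Sox2, Notch1, Nes and Slc1a3 were measured in that setting.

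The genes whose pattern over the 14 RiboMinus libraries was most like each member, by Pearson r of log2(RPKM + 1) among the 10306 genes, were Grm5 for Hes5, Rtn1 for Dll1, Mybpc1 for Fabp7, Ttyh3 for Notch1, Pitpnm1 for Sox2, Vps18 for Hes1, En2 for Dll3, Ptcd2 for Slc1a3 and Foxf2 for Nes. The r ran from 0.895 for Nes to 0.998 for Hes5, and the libraries share their preparation in pairs and form 2 clusters by source, so these values are descriptions.

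RiboMinus depth was 920424 to 2473448 unique tags per library, and Ribo-Zero depth was 28708715 for CCE and 48426051 for FH. In RiboMinus libraries 44.4% to 72.4% of tags fell in exons of protein-coding genes, more in CCE (65.0% to 72.4%) than in FH (44.4% to 61.3%), and the scale of exon tags divides by this share. In Ribo-Zero the share was 61.6% in CCE and 43.0% in FH. Between 98.1% and 100% of the 36-base windows within single exons of the members occur once in the genome as exact matches. The authors' alignment allowed mismatches, so tags lost to near matches or across splice junctions were not counted.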

How the data were processed

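The deposited BED files hold 1 aligned tag a line. Their coordinate columns carry the start and end of each tag, and the score column the authors deposited is constant and was not used. Per the labels and the submitters' processing notes, Bowtie (version not given in the sources used here) and mm9 were used. The authors kept tags with 1 genome match, without mapping over splice junctions, after removing ribosomal tags, and for RiboMinus also mitochondrial tags. Tag length was 36 nt for RiboMinus and 51 nt for Ribo-Zero, and strand is not known.

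Counts of deposited tags were made from tag midpoints in merged GENCODE M1 exons, and RPKM and log2 values were computed from them. The locations of a preparation were pooled. The fit was limma 3.58.1 (R 4.3.3) with an intensity trend on log2(RPKM + 1), and introns of at least 500 bases used a pseudocount of 0.1. Ratios of pooled tags have exact 95% intervals that take each tag as an independent count. Counting used Python 3.11.15, pandas 2.3.3 and numpy 2.4.6, intervals came from scipy 1.17.1 and plots from matplotlib 3.10.9, and the fit was tested on simulated data. Alternatives covered scale, filter, pseudocount, fragmentation, location, duplicates, exon parts and leaving out each preparation. Named genes are all members, the gene most like each by Pearson r, genes that share exon bases with a member, and from each further list the 4 called genes with the largest difference in each direction. Other genes named from the further lists and the markers (such as Nr2e1, Pax6, Gfap, Jag1, Jag2, Notch2 to Notch4, Rbpj and Neurog2) were picked with their values already in view. The members and lists were chosen with earlier results of these data known. Samples beyond these 16 libraries were not analysed here, and some listed genes are not reported here.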

Additional observations from a re-analysis of the deposited data

Results flagged for a closer look

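Of 23 groups of libraries tested for a sample far from the others, 2 had one, the same library in both. Chance gives about 1 in 20 for independent and like libraries. The 6 FH libraries share cDNA in pairs and mix sheared with hydrolysed preparations, so that rate does not apply to them. Nes in the 6 FH RiboMinus libraries reached an RPKM of 13.0 in the Nijmegen library of sheared FH1, against 8.11 in the nearest library and a median of 6.95. Dll3 reached 11.7 in that same library, against 5.03 in the nearest and a median of 4.17.

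The Sox1 window lies outside the annotation and so outside the fitted comparison, and its extent over the transcript was not checked. Its RPKM was 5.84 in the pooled FH RiboMinus libraries (95% exact interval 5.12 to 6.64, from 234 tags) and 0.683 in those of CCE (interval 0.479 to 0.946, from 36 tags), a ratio of 8.55 (interval 6.00 to 12.5). In Ribo-Zero the ratio was 6.39 (interval 5.00 to 8.29). These intervals cover counting error only.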

How the results depend on the processing

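Fabp7, Dll1, Dll3 and Hes5 kept their direction and their call in all 24 alternatives. Without a filter 3650 genes were called higher, and on the scale of exon tags 2138 were called lower. The number of members called higher was 4 with Nijmegen libraries only, with each position counted once and without the Vienna-IMP lane of hydrolysed FH1, where Nes, Sox2 and Notch1 lost the call. Leaving out 1 preparation gave 4 to 7 members, 1791 to 2048 genes higher and 2930 to 3744 lower. For introns it gave 1249 to 2825 genes higher, the lowest without FH2 hydrolysed (1261 without FH1 hydrolysed), and 302 to 452 lower. Introns without a filter gave 3813 genes higher, and with fragmentation as a covariate 3341 higher and 979 lower. The cause was not tested. With the preparation number as a replicate block, 6 members were called, Sox2 (0.94, limma adjusted p = 0.054) losing its call, with 1927 genes higher and 3177 lower. No source states that a number is shared between CCE and FH, and the correlation of hydrolysed 1 minus 2 differences (r = -0.15 across 10306 genes) cannot show it, since the hydrolysed numbers may not mark the same cDNA at both locations. With the FH numbers crossed, a pairing added after seeing the data, the block gave 1920 higher, 3173 lower and 6 members. The Ribo-Zero alternatives and the shared-exon alternative were also added then. RiboMinus depth limits the low genes most: Dll1 and Dll3 rest on 13 and 11 CCE tags.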
